A study of Mus musculus with 24 samples.

Results

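The insulin-like growth factor (IGF) system was followed through 10 genes: the ligands Igf1 and Igf2, the receptors Igf1r and Igf2r, and the binding proteins Igfbp2 to Igfbp7. Members were taken as every probe set on both array designs, MA and MB, whose annotation names 1 of these genes and no other. This gave 28 probe sets, 23 on MA and 5 on MB, out of 45137 probe sets in all and 18193 genes that a probe set names alone. A further MB probe set, 1440979_at, names Airn and Igf2r together, had a median intensity of 49.4 and was not used for either gene.

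The study hybridised biotin-labelled total RNA of C2C12 cells, an established mouse myoblast line whose cells fuse into myotubes, to 24 arrays, 12 cultures on each design. The labels give 4 groups of 3 cultures: DM with 5 mM glucose, DM with 25 mM glucose, GM with 5 mM glucose and GM with 25 mM glucose. In work on this line DM and GM commonly stand for differentiation medium and growth medium, but the labels hold only the letters, and no genotype change, transgene or further agent is named for any group. The series asks about calorie restriction in muscle precursor differentiation, and glucose is the nutrient its labels name. All cultures come from 1 cell line. Nothing says that replicates came from separate thaws or passages, so p-values measure the spread between these samples only, which may be partly technical.

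IGF1 and IGF2 are secreted peptides that act through the IGF1 receptor, a tyrosine kinase whose signal runs through the insulin receptor substrates, phosphoinositide 3-kinase and AKT. The IGF2 receptor carries no kinase. It binds IGF2 and delivers it to lysosomes, and it also sorts mannose 6-phosphate tagged enzymes. IGF binding proteins hold the ligands outside the cell and can limit or prolong their action, and proteases release the ligands again. Cultured myoblasts are known to make their own IGF2 while they differentiate, and Igf2 and Igf2r are both imprinted genes in the mouse.

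Promoter sequence was examined because the E-box is the site bound by the MyoD family of muscle transcription factors, and MEF2 factors act with them. On build GRCm38.p6 Igf2 lies on chromosome 7 (142650768 to 142666816) and so does Igf1r (67952257 to 68233668), while Igf1 lies on chromosome 10 (87858265 to 87937047) and Igf2r on chromosome 17 (12682406 to 12769706). Igfbp2 (72824480 to 72852474) and Igfbp5 (72858065 to 72874865) are close together on chromosome 1. Igfbp3 and Igfbp4 lie on chromosome 11, Igfbp6 on chromosome 15 and Igfbp7 on chromosome 5. RefSeq windows of 250 bases before the annotated start existed for all 10 members, with 14 windows in total. The E-box CANNTG, searched on both strands, occurred in 9 of the 14 windows, and in 66.2% of 32851 windows of the same length. The narrower form CAGCTG, which is contained in the E-box, occurred in 1 member window (Igf1), and in 13% of all windows. The MEF2 core, which is CTA followed by any 4 bases and TAG, occurred in 0 member windows, and in 3.2% of all windows. TATAAA or its reverse complement occurred in 2 member windows (Igfbp4 and Igfbp6), and in 12.4% of all windows. The member windows thus held E-boxes at about the share of all windows, and a match is a description of letters only.

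The windows below belong to the members whose intensity differed between DM and GM at both glucose levels and that had the single CAGCTG (Igf1), the largest difference (Igf2), the most E-boxes (Igf2r) or the largest falls among binding proteins (Igfbp2 and Igfbp6). Each runs 5′ to 3′ on the strand of the gene and ends at the base before the annotated start. Capitals mark E-boxes and, in Igfbp6, also the reverse complement of TATAAA. For Igf2 and Igfbp2, which have several annotated starts, the most upstream one is shown.
Igf1 (chr10:87860861-87861110, plus strand): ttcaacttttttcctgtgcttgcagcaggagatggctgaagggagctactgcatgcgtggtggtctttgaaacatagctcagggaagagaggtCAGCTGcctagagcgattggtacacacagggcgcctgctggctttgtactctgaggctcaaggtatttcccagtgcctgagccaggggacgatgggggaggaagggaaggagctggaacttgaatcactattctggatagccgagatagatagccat
Igf2 (chr7:142666817-142667066, minus strand): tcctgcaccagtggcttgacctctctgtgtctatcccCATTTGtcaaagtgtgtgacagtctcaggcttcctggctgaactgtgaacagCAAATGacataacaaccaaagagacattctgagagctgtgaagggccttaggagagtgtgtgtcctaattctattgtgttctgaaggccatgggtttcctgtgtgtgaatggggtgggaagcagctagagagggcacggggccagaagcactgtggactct
Igf2r (chr17:12769707-12769956, minus strand): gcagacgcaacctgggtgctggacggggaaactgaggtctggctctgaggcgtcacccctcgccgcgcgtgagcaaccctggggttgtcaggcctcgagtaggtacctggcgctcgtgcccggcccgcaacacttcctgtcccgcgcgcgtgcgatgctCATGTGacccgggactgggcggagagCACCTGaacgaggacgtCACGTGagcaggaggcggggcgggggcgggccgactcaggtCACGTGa
Igfbp2 (chr1:72824230-72824479, plus strand): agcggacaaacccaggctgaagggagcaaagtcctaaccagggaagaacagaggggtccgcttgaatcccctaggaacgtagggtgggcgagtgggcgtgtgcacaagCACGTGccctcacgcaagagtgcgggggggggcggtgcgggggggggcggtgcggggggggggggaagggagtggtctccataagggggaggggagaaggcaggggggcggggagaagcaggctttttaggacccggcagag
Igfbp6 (chr15:102143936-102144185, plus strand): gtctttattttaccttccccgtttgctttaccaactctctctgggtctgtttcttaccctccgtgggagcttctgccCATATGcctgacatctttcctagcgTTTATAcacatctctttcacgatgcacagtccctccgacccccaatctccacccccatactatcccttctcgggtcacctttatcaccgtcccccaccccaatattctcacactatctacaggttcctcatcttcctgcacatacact

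The Igf2 window held 2 E-boxes, 213 and 161 bases before the start, and the windows of its other 3 starts held none. Igf2r had 4, of which the nearest lay 7 bases before the start. The Igfbp2 and Igfbp6 windows each had 1, at 142 and 173 bases.

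Of the 28 probe sets, 23 had a mean intensity above the 40th percentile of their design and were tested, and every member had at least 1 of them. The 5 others (1 each of Igf2, Igf1r and Igfbp4 and 2 of Igfbp7) read 1.84 to 65.2 over all cultures. Tests were made with limma on log2 of intensity plus 20, with Benjamini-Hochberg adjustment over all tested probe sets of a design, and a difference was called at an adjusted p under 0.05. All log2 changes are on that scale, which understates the change of dim probe sets. Where a gene has several probe sets, its brightest tested MA probe set is given first. Intensities of different probe sets are not set against each other.

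The 12 cultures fell into a set of 4 and a set of 8 by the array's own 18S ribosomal RNA control, a division no label mentions. The MA reading of that control was 23.0 to 48.1 in the set of 4, here low-18S (DM 5 mM replicate 2, DM 25 mM replicate 3, and GM 5 mM replicates 1 and 2) and 279 to 1267 in the set of 8, here high-18S. Cultures of a group correlated at 0.951 to 0.987 over MA probe sets and at 0.792 to 0.918 over MB probe sets. The MB arrays of a group were thus less alike over their probe sets, but a single MB probe set need not be the less precise one. The labelled cell type was checked on markers: Myod1, which marks the myoblast lineage, read 976 to 1560 in all cultures. Of the other listed myoblast markers, Pax7 read 102 to 175 and Myf5, a dim one, 28.1 to 97.4, and neither was called between the media. Des rose in DM, by log2 1.02 at 5 mM and 1.24 at 25 mM (limma adjusted p = 0.000646 and 0.000105). All 5 myotube markers (Myog, Ckm, Acta1, Myh3 and Mymk) were higher in DM at both glucose levels, with summed intensities of 16240 to 28040 in DM 5 mM against 77.62 to 133.1 in GM 5 mM, and of 19640 to 35250 in DM 25 mM against 93.18 to 213.4 in GM 25 mM. The GM means of Myog, Acta1, Myh3 and Mymk lay below the 35.5 that the filter asks of a mean on MA. These markers were thus tested through their DM readings.

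The system changed with the medium on both sides of zero. In DM against GM at 5 mM, 15 of the 23 tested probe sets were called, 6 higher and 9 lower, against 17.6% of all 27081 tested probe sets (7.52% higher and 10.1% lower). At 25 mM, 15 were called, 7 higher and 8 lower, against 21.3% of all (9.83% higher and 11.5% lower). These shares pool MA and MB, which were adjusted separately, and most tested member probe sets are on MA. At 5 mM an unadjusted limma p of 0.0129 was called on MA (the pathway gene Akt1, adjusted p = 0.0458). On MB one of 0.0034 was not (Foxo4, adjusted p = 0.0526). The share called on MA alone was thus higher than the pooled share, which is a low yardstick for members on MA. The median log2 change over the 23 was -0.15 at 5 mM and -0.14 at 25 mM, beside -0.03 and -0.09 over all tested probe sets. By the first-named MA probe set of each gene, 9 of the 10 members were called at each glucose level. Of these, 4 were higher (Igf1, Igf2, Igf2r and Igfbp3) and 5 lower (Igf1r, Igfbp2, Igfbp4, Igfbp6 and Igfbp7). Of 12851 genes from both designs, 23.2% were called at 5 mM and 28.1% at 25 mM. Igfbp5 was the member without a call. The MB probe sets of Igf1 and Igf1r were not called at 5 mM, and those of Igf1r were not called at 25 mM. When each array was centred on its median, the median change of all probe sets at 25 mM moved by 0.16, and 65.4% of all calls were then higher in DM, against 46.1% otherwise, but no called member turned direction. The 3 DM cultures lay wholly above or below the 3 GM cultures for 16 probe sets at 5 mM and for 15 at 25 mM, against 31.3% and 35.7% of all tested probe sets. In bulk RNA a change in the share of cells of a kind and a change of RNA per cell cannot be told apart.

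**Figure D1:**
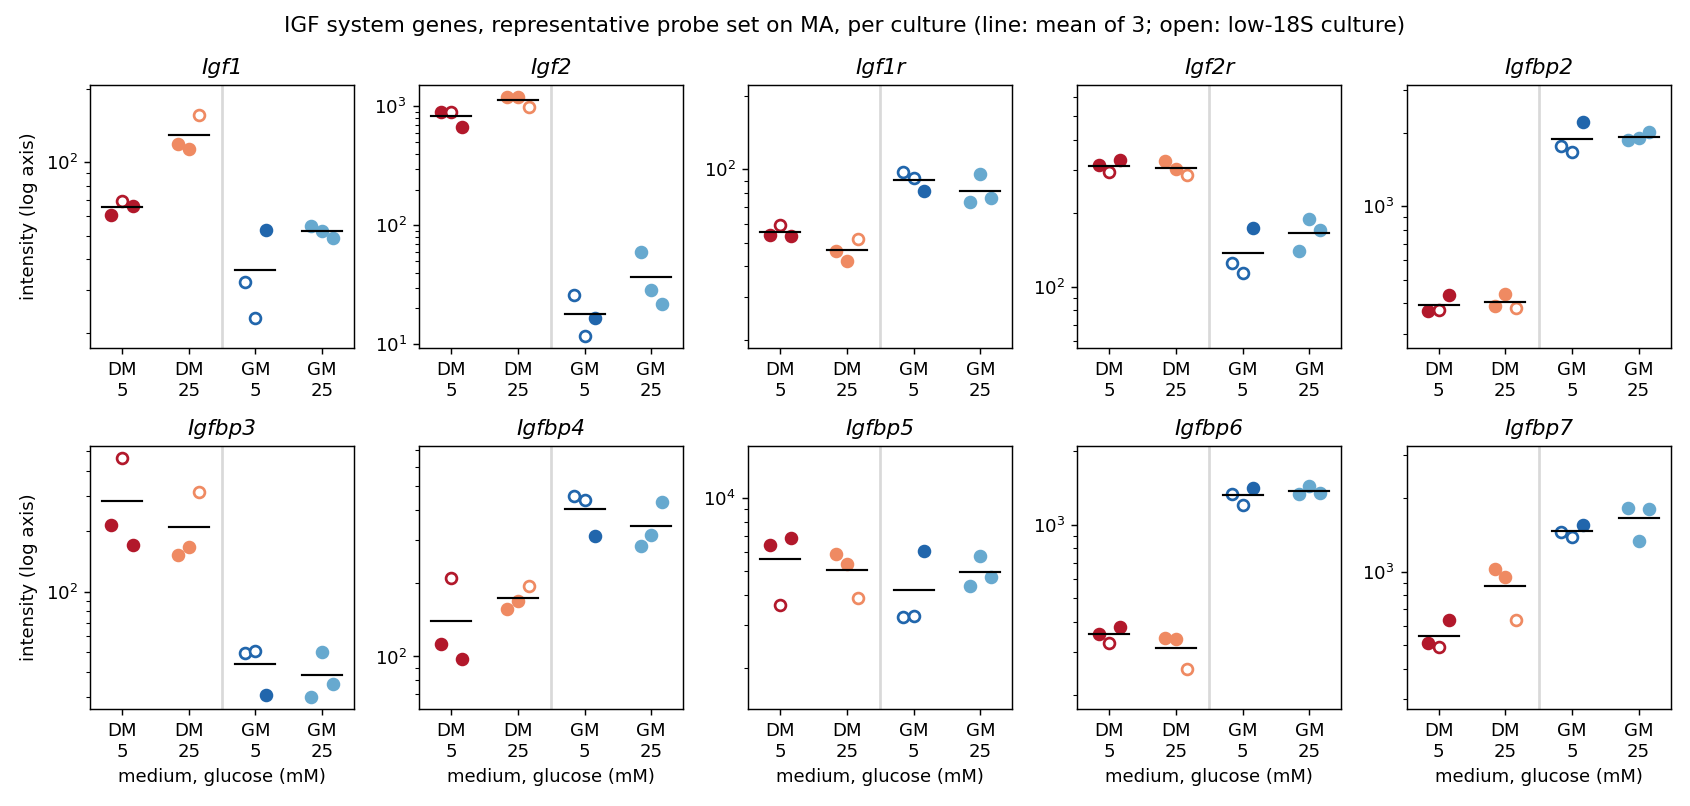
Intensity (log axis) of the brightest tested MA probe set of each of the 10 members in the 12 cultures, by medium and glucose concentration in mM; a point is 1 culture, a line the mean of 3, and open points are the low-18S cultures. For Igf2 the DM cultures sit between 677.1 and 1202 and the GM cultures between 11.7 and 59.99, while for Igfbp5 the groups overlap.

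Igf2, the ligand that myoblasts make while differentiating, showed the largest change of the system. Its tested probe set, 1448152_at, read 904.4, 890 and 677.1 in DM 5 mM, against 26.01, 11.7 and 16.49 in GM 5 mM. At 25 mM it read 1200, 1202 and 991.3 in DM, against 59.99, 28.64 and 21.61 in GM. Every DM culture was above every GM culture by more than 10 times. Group means were 823.8 ± 127 in DM 5 mM against 18.07 ± 7.28 in GM 5 mM, and 1131 ± 121 in DM 25 mM against 36.75 ± 20.4 in GM 25 mM (SD, n = 3 each). Igf2 rose by log2 4.48 at 5 mM (SE 0.22, limma adjusted p = 2.18e-09) and by 4.40 at 25 mM (SE 0.22, adjusted p = 2.37e-09). Because 5 of the 6 GM readings lay below the intensity of 35.5 that the filter asks of a mean on MA, the size depends on the pseudocount, and over all alternative settings it ran from 3.43 to 5.49 at 5 mM and from 3.58 to 5.03 at 25 mM, called in each. Igf2 passed the filter through its DM readings. The other Igf2 probe set, 1415931_at, was too dim to test, with means of 26.02 ± 14.3 in DM 5 mM against 10.68 ± 5.85 in GM 5 mM, and 39.82 ± 24.6 in DM 25 mM against 23.86 ± 18.7 in GM 25 mM (SD, n = 3 each).

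Igf1, the other ligand, was higher in DM by a smaller step. Probe set 1437401_at read 61.01, 69.64 and 66.24 in DM 5 mM, against 32.4, 22.99 and 52.89 in GM 5 mM. In the 25 mM cultures it read 118.7, 113 and 156.1 in DM, against 54.96, 52.46 and 48.9 in GM. The groups did not overlap at either glucose level, and the gap was wider at 25 mM, a contrast between the glucose levels that the interaction did not call (-0.40, adjusted p = 0.591). The log2 change was 1.04 at 25 mM (SE 0.21, adjusted p = 0.00141) and 0.64 at 5 mM (SE 0.21, adjusted p = 0.0323). The 5 mM call was lost in 7 of 22 alternatives. Within the high-18S cultures the 5 mM difference was 0.20 (adjusted p = 0.707), where GM has 1 culture, assumed to vary like the other groups. The 2 lowest GM 5 mM readings come from low-18S cultures.

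The remaining Igf1 probe sets gave a partial match. On MB, 1434413_at read 374.3, 573.4 and 617.7 in DM 25 mM, against 144.5, 234.7 and 188.3 in GM 25 mM, and rose by log2 1.37 (SE 0.37, adjusted p = 0.0297), a call lost in 6 of 23 alternatives. At 5 mM the same probe set read 208.7, 407.2 and 103.8 in DM, against 212.8, 142.7 and 148 in GM, so the groups overlapped (log2 0.31, 95% interval -0.48 to 1.09). The dim MA probe sets 1419519_at and 1452014_a_at were not called, with log2 differences of 0.35 and -0.15 at 5 mM and of 0.32 and 0.28 at 25 mM.

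The receptors moved in opposite directions. Igf2r, the receptor that clears IGF2, was higher in DM on both of its probe sets. Probe set 1424112_at read 315.5, 296.2 and 329.8 in DM 5 mM, against 125.6, 114.3 and 174.1 in GM 5 mM. The 25 mM readings were 326.8, 305.3 and 286.7 in DM, against 140.5, 188.9 and 170.7 in GM. The 6 DM cultures lay close together and all above the 6 GM cultures. Igf2r rose by log2 1.10 at 5 mM (SE 0.15, adjusted p = 7.53e-05) and by 0.81 at 25 mM (SE 0.15, adjusted p = 0.000879). The second probe set, 1424111_at, averaged 290.7 ± 18.7 in DM 5 mM against 120.4 ± 14.6 in GM 5 mM, and 248.7 ± 21.8 in DM 25 mM against 144.5 ± 19.4 in GM 25 mM (SD, n = 3 each), with log2 changes of 1.15 and 0.71. All 4 of these calls held in all 23 alternatives.

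Igf1r, the signalling receptor, was lower in DM on 1426565_at. It read 54.06, 59.27 and 53.55 in DM 5 mM, against 97.26, 92.2 and 81.24 in GM 5 mM. With 25 mM glucose it read 46.17, 42.25 and 51.85 in DM, against 73.25, 95.7 and 76.01 in GM. No DM culture reached the lowest GM culture. Igf1r fell by log2 0.54 at 5 mM (SE 0.17, adjusted p = 0.0277) and by 0.60 at 25 mM (SE 0.17, adjusted p = 0.0134), and these calls were lost in 7 and 2 of 22 alternatives. Within the high-18S cultures, again with 1 GM culture, the 5 mM difference was close in size at -0.46 (adjusted p = 0.35). The 3 MB probe sets of Igf1r were not called. The brightest of them, 1452982_at, averaged 613.5 ± 120 in DM 5 mM against 822.6 ± 144 in GM 5 mM, and 632.6 ± 272 in DM 25 mM against 781 ± 205 in GM 25 mM (SD, n = 3 each). Its 95% intervals ran from -0.999 to 0.17 and from -0.93 to 0.24 and thus include the changes seen on MA. The MB probe set 1428967_at had a log2 difference of 0.18 at 5 mM and of -0.69 at 25 mM, and 1446303_at had -0.62 and -0.14.

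Among the binding proteins, Igfbp2 and Igfbp6 showed the largest falls. Igfbp2, which binds both ligands, read 373, 376.8 and 433.7 in DM 5 mM, against 1771, 1676 and 2207 in GM 5 mM. Under 25 mM glucose the readings were 390.3, 435.5 and 384.4 in DM, against 1862, 1905 and 2023 in GM. Within a medium the 6 cultures hardly differed, and the media were far apart. Igfbp2 fell by log2 2.19 at 5 mM (SE 0.13, adjusted p = 1.02e-08) and by 2.21 at 25 mM (SE 0.13, adjusted p = 9.52e-09). Over all alternatives its change stayed between -2.40 and -2.01.

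Igfbp6, which prefers IGF2 over IGF1, read 358.1, 327.5 and 382.4 in DM 5 mM, against 1336, 1208 and 1419 in GM 5 mM. At 25 mM it read 344.2, 339.9 and 255.3 in DM, against 1340, 1444 and 1352 in GM. The lowest GM culture was above 3 times the highest DM culture. The log2 change was -1.83 at 5 mM (SE 0.13, adjusted p = 7.79e-08) and -2.08 at 25 mM (SE 0.13, adjusted p = 1.99e-08).

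Igfbp7, a secreted protein that binds IGFs weakly and also binds insulin, was lower in DM as well. Probe set 1423584_at read 511.8, 489.3 and 635.7 in DM 5 mM, against 1460, 1391 and 1558 in GM 5 mM. In the 25 mM cultures it read 1027, 953.3 and 636 in DM, against 1828, 1331 and 1803 in GM. The groups did not overlap, and the gap was narrower at 25 mM, though the interaction was not called (-0.48, adjusted p = 0.467). The log2 change was -1.40 at 5 mM (SE 0.18, adjusted p = 3.3e-05) and -0.92 at 25 mM (SE 0.18, adjusted p = 0.00111). Its 2 other probe sets were too dim to test.

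Igfbp4, a binding protein that mainly inhibits IGF action and is cut by the protease PAPP-A, was lower in DM across most of its probe sets. The brightest, 1437405_a_at, read 112.8, 209.5 and 97.43 in DM 5 mM, against 455.4, 438 and 311.3 in GM 5 mM. The 25 mM readings were 156, 168.8 and 194.8 in DM, against 284.3, 315.4 and 429.5 in GM. The highest DM culture at each glucose level was the low-18S one. The log2 change was -1.44 at 5 mM (SE 0.23, adjusted p = 0.000254) and -0.90 at 25 mM (SE 0.23, adjusted p = 0.00782). Of the 5 tested Igfbp4 probe sets, all 5 were called lower at 5 mM, with log2 changes from -1.44 to -0.94. At 25 mM 4 were called lower, and the exception was 1421992_a_at with -0.36 (adjusted p = 0.269). These probe sets report 1 gene and are not independent, and those ending in _x_at or _s_at can also match other transcripts. The latter limit also applies to probe sets of other genes with these endings.

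Igfbp3, which carries most of the circulating IGF in mammals, went the other way. Probe set 1423062_at read 214.8, 464 and 170.5 in DM 5 mM, against 49.76, 50.49 and 30.74 in GM 5 mM. With 25 mM glucose it read 151.8, 166.6 and 313.8 in DM, against 29.87, 50.41 and 34.78 in GM. All DM cultures were above all GM cultures, and the highest DM reading in each group was that of its low-18S culture. Igfbp3 rose by log2 2.15 at 5 mM (SE 0.32, adjusted p = 0.00014) and by 1.93 at 25 mM (SE 0.32, adjusted p = 0.00031), ratios of means of 6.48 and 5.49. The MB probe set 1458268_s_at read 1746, 2773 and 1723 in DM 5 mM, against 801.3, 911.6 and 632.5 in GM 5 mM. Under 25 mM glucose the readings were 1236, 1418 and 1783 in DM, against 457.2, 442.1 and 568.9 in GM. Both array designs thus put Igfbp3 higher in DM, and the MB log2 changes were 1.37 (adjusted p = 0.000294) and 1.55 (adjusted p = 7.46e-05). The designs read the same cultures, so they are not independent, and an _s_at probe set can match other transcripts.

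**Figure D2:**
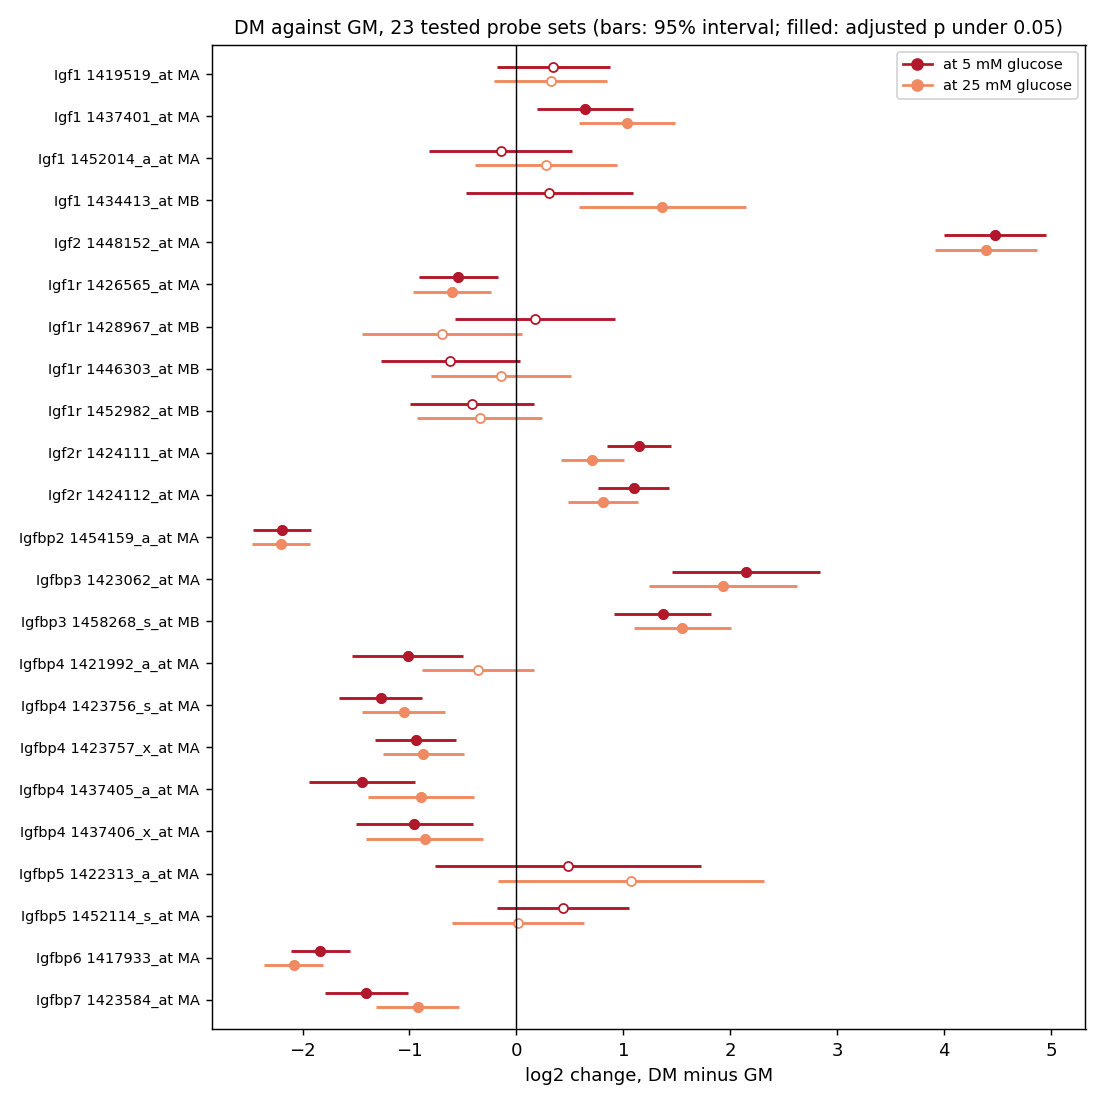
Log2 change of DM minus GM for the 23 tested probe sets at 5 mM and 25 mM glucose (horizontal axis); points are limma estimates, bars 95% intervals and filled points have an adjusted p under 0.05. Igf2 stands farthest to the right at 4.48 and 4.40, Igfbp2 and Igfbp6 farthest to the left, and the Igf1r and Igf1 probe sets on MB have wide bars.

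Igfbp5, a binding protein strongly tied to myoblast differentiation in cultured cells, was the member not called between the media. Probe set 1452114_s_at read 6429, 3639 and 6833 in DM 5 mM, against 3251, 3269 and 6063 in GM 5 mM. At 25 mM it read 5867, 5367 and 3897 in DM, against 4352, 5755 and 4743 in GM. The groups overlapped, and the log2 difference was 0.44 at 5 mM (95% interval -0.19 to 1.06, adjusted p = 0.303) and 0.02 at 25 mM (95% interval -0.60 to 0.64, adjusted p = 0.972). The second probe set, 1422313_a_at, read 726, 2653 and 920.7 in DM 5 mM, against 1338, 1393 and 336.1 in GM 5 mM. In the 25 mM cultures it read 764.1, 974.7 and 2328 in DM, against 409, 416.1 and 1034 in GM. It was not called either, with log2 differences of 0.49 (95% interval -0.76 to 1.73) and 1.07 (95% interval -0.17 to 2.32).

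Both Igfbp5 probe sets split by the 18S control, in opposite directions. On 1422313_a_at the 4 low-18S cultures read 1338 to 2653 and the other 8 read 336.1 to 1034. On 1452114_s_at the 4 low-18S cultures read 3251 to 3897 and the other 8 read 4352 to 6833. Neither pair of ranges overlaps. Within the low-18S and within the high-18S cultures at 5 mM, every DM reading was above every GM reading on both probe sets. These sets hold only 1 or 2 cultures of each medium at 5 mM. At 25 mM no GM culture was low-18S, and the high-18S readings of DM and GM overlapped on both probe sets. With group means held, low-18S minus high-18S was 1.68 on 1422313_a_at (SE 0.31) and -0.76 on 1452114_s_at (SE 0.10), on the log2 scale. With the 18S division as a block, 1422313_a_at was higher in DM than in GM at 5 mM by log2 1.05 (adjusted p = 0.00632) and by 0.51 at 25 mM (adjusted p = 0.142). For 1452114_s_at the same fit gave 0.18 (adjusted p = 0.228) and 0.27 (adjusted p = 0.065). Within the high-18S cultures 1422313_a_at differed by 1.23 at 5 mM (adjusted p = 0.0617), where GM has 1 culture. No other tested member probe set had low-18S and high-18S ranges that did not overlap. Igfbp3 (0.85, SE 0.16) and Igfbp4 1437405_a_at (0.54, SE 0.15) had the next largest differences in favour of low-18S cultures among the first-named probe sets. The part of RNA quality in these divisions was not tested.

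**Figure D3:**
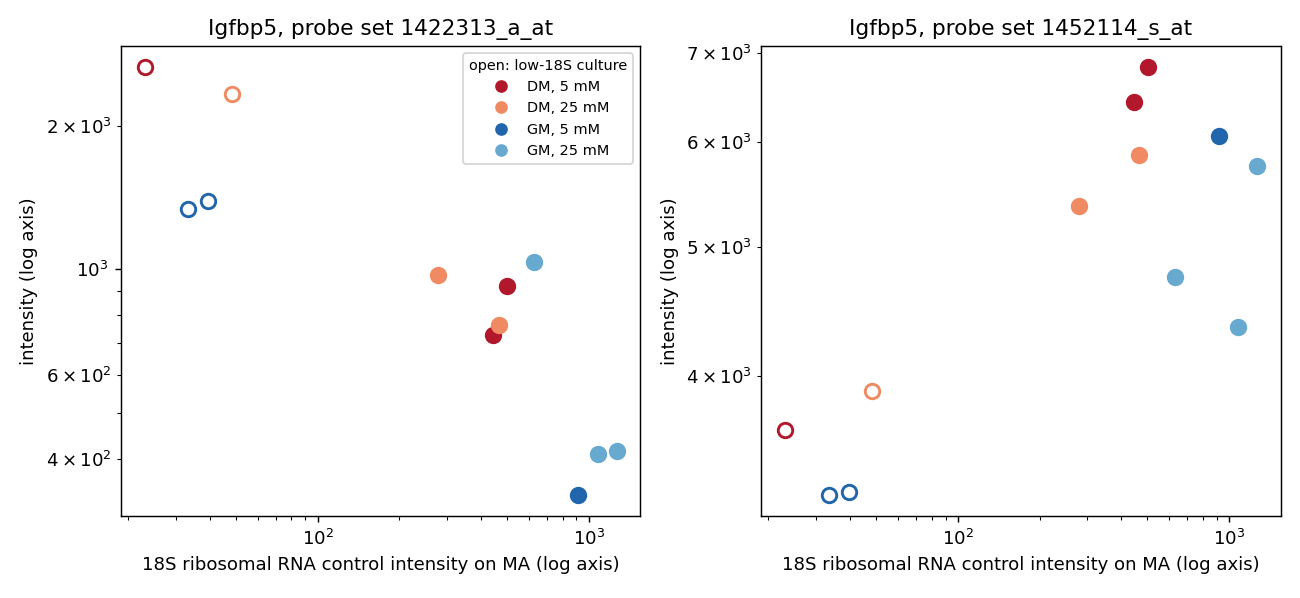
Intensity of the 2 Igfbp5 probe sets (vertical axes, log) against the 18S ribosomal RNA control on MA (horizontal axes, log), 1 point per culture, coloured by group, with low-18S cultures open. The 4 open points lie above the other 8 for 1422313_a_at and below them for 1452114_s_at.

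The glucose concentration moved no member past the test. In DM at 5 mM against 25 mM, 0 of 23 probe sets were called by limma, against 0.864% of all tested probe sets, and 4 had an unadjusted p under 0.05. In GM, 0 were called, against 0.00369%, and 2 had an unadjusted p under 0.05. For the interaction, which is the glucose difference in DM minus that in GM, 0 were called against 0.284%, and 1 had an unadjusted p under 0.05. The median log2 difference over the 23 was -0.03 in DM and -0.06 in GM, beside 0.01 and 0.00 over all tested probe sets. Groups that did not overlap numbered 6 in DM and 1 in GM, against 12.1% and 15.6% of all tested probe sets.

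The members nearest to a call in DM were Igf1 and Igfbp7, both with lower readings at 5 mM. Igf1 1437401_at averaged 65.63 ± 4.35 in DM 5 mM against 129.3 ± 23.4 in DM 25 mM (SD, n = 3 each), a log2 difference of -0.79 (95% interval -1.24 to -0.34, adjusted p = 0.089). With the 18S division as a block the difference was unchanged in size and its adjusted p was 0.0399. In the 8 high-18S cultures alone the difference was -0.70 (adjusted p = 0.211). Over 22 alternatives 3 gave a call. The MB probe set of Igf1 averaged 239.9 ± 154 in DM 5 mM against 521.8 ± 130 in DM 25 mM (SD, n = 3 each), with a log2 difference of -1.21 (95% interval -1.99 to -0.43, adjusted p = 0.498), and its groups overlapped. In GM, Igf1 1437401_at differed by -0.40 (95% interval -0.85 to 0.05).

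Igfbp7 averaged 545.6 ± 78.8 in DM 5 mM against 872.1 ± 208 in DM 25 mM (SD, n = 3 each), a log2 difference of -0.64 (95% interval -1.02 to -0.25, adjusted p = 0.119). The lowest DM 25 mM reading, 636, came from the low-18S culture and was almost equal to the highest DM 5 mM reading, 635.7. Without that culture the difference was -0.85 (adjusted p = 0.0194), with the 18S division as a block -0.64 (adjusted p = 0.0132) and in the 8 high-18S cultures alone -0.77 (adjusted p = 0.0475). In all, 4 of 23 alternatives gave a call. In GM, Igfbp7 differed by -0.16 (95% interval -0.54 to 0.23). The cycling markers Mki67 and Top2a also read lower in DM at 5 mM than at 25 mM, by log2 -0.92 (adjusted p = 0.00148) and -0.62 (adjusted p = 0.0214), and their part in the Igfbp7 and Igf1 differences was not tested.

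For Igf2 all 3 DM 5 mM cultures read below all 3 DM 25 mM cultures, with a log2 difference of -0.45 (95% interval -0.93 to 0.02, adjusted p = 0.517). In GM the Igf2 difference was -0.54 (95% interval -1.01 to -0.06, adjusted p = 0.447), at readings where the pseudocount weighs heavily. Igfbp2 had narrow intervals around zero for glucose, from -0.30 to 0.24 in DM and from -0.31 to 0.23 in GM. Igfbp3 on MB read higher in GM 5 mM than in GM 25 mM without overlap (0.65, 95% interval 0.19 to 1.10, adjusted p = 0.652), where 2 of the 3 GM 5 mM cultures and none of the GM 25 mM cultures are low-18S. In DM the same probe set was also higher at 5 mM, with overlapping groups (0.467, 95% interval 0.014 to 0.92, adjusted p = 0.856).

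**Figure D4:**
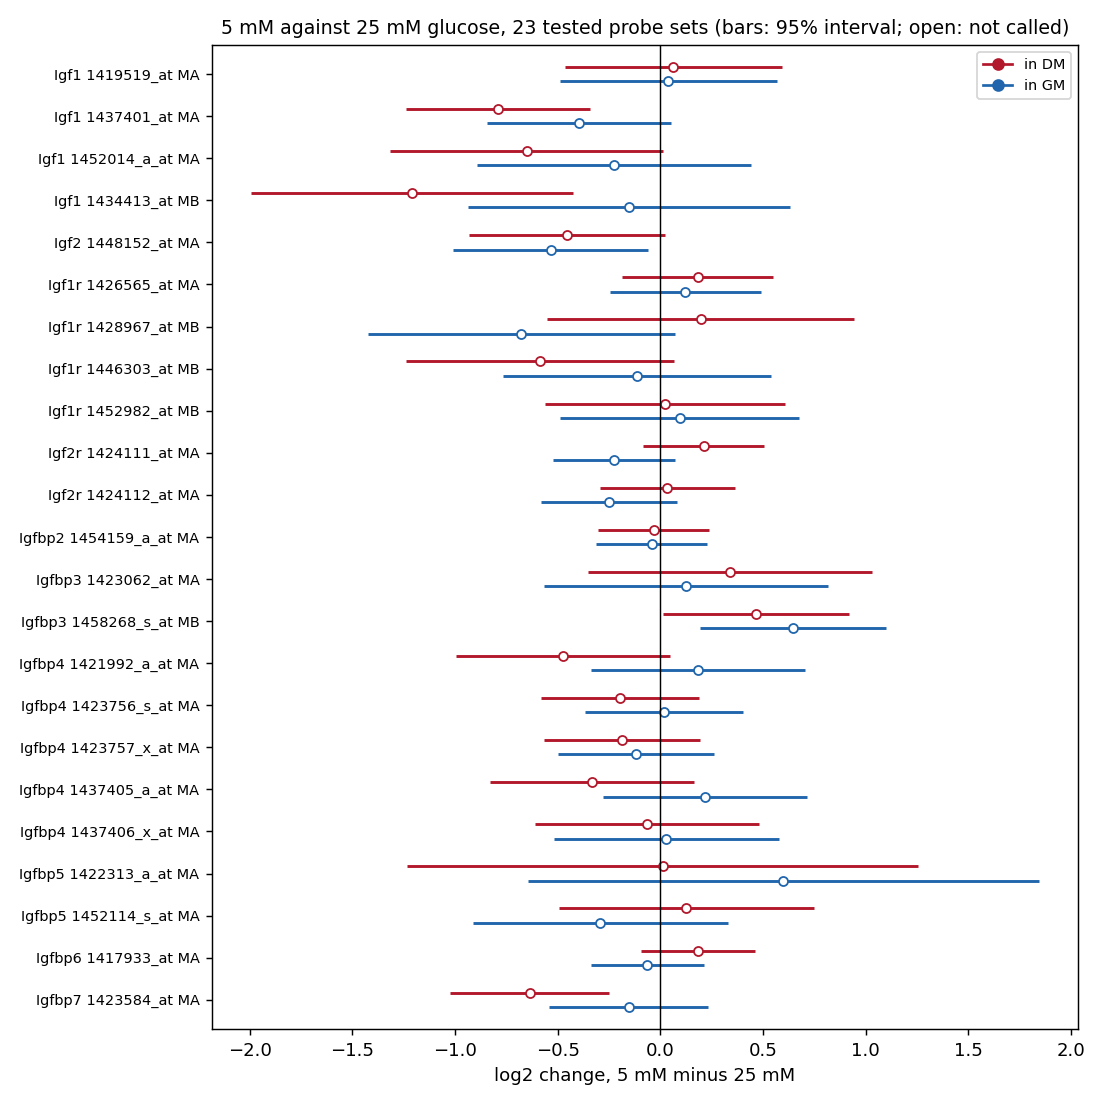
Log2 difference of 5 mM minus 25 mM glucose for the 23 tested probe sets in DM and in GM (horizontal axis); points are limma estimates and bars 95% intervals, and open points are not called. No point is called. Igf1 1437401_at and 1434413_at and Igfbp7 have DM bars that end below zero, and Igfbp3 1458268_s_at has a DM bar that starts just above zero.

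Ordered by group mean, Igf2 and Igf1 1437401_at were highest in DM 25 mM, then DM 5 mM, then GM 25 mM, and lowest in GM 5 mM. Igf2r and Igfbp3 1423062_at had both DM groups above both GM groups, with DM 5 mM highest. From lowest to highest, Igfbp7, Igfbp2 and Igfbp4 1437405_a_at began with DM 5 mM and DM 25 mM, and Igf1r and Igfbp6 began with DM 25 mM and DM 5 mM. On the first-named MA probe sets of these 9 genes the differences between media at equal glucose passed the test. Those between glucose levels in 1 medium did not. The MB probe sets of Igf1 and Igf1r were not called between the media at 5 mM, nor those of Igf1r at 25 mM. The 4 group means of Igfbp5 could not be put in order by any call.

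The rest of the pathway was read from 57 further genes, of which 42 had a tested probe set. In DM against GM at 5 mM, 14 were called, 9 higher and 5 lower, beside 9.5% and 13.7% of all genes. At 25 mM, 15 were called, 10 higher and 5 lower, beside 12.2% and 15.9%. These shares pool MA and MB, and most of the 42 genes were read on MA, where a larger share was called. The pathway counts are thus not read as an excess over all genes. The median log2 change was 0.17 at both glucose levels, beside -0.04 and -0.11 over all genes. In both glucose comparisons and in the interaction 0 of the 42 were called by limma, while 5 (DM), 3 (GM) and 6 (interaction) had an unadjusted p under 0.05, and of all genes 1.35%, 0.00778% and 0.467% were called.

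The phosphoinositide 3-kinase and AKT group had 6 of 9 tested genes called at 5 mM (5 higher and 1 lower) and 5 of 9 at 25 mM (4 higher and 1 lower). Of all genes, both designs pooled, 23.2% were called at 5 mM and 28.1% at 25 mM. Inppl1, the lipid phosphatase SHIP2, averaged 1627 in DM 5 mM against 406.1 in GM 5 mM and rose by log2 1.96 (SE 0.12, adjusted p = 2.16e-08). At 25 mM it averaged 1779 in DM against 358.7 in GM and rose by 2.25 (SE 0.12, adjusted p = 4.82e-09). Akt2, the AKT form prominent in insulin-responsive tissue, rose by 1.81 (SE 0.18) and 1.45 (SE 0.18) at 5 and 25 mM. The kinase subunits Pik3cb and Pik3r3 rose by 1.51 (SE 0.40) and 1.34 (SE 0.18) at 5 mM. Pik3r1, the main regulatory subunit, went down by contrast, with changes of -0.98 at 5 mM (SE 0.22, adjusted p = 0.00344) and -0.77 at 25 mM (SE 0.22, adjusted p = 0.0138).

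Of 7 tested adaptor genes 2 were called lower at 5 mM and 2 at 25 mM, and of these Irs1 was called at both. Of all genes 23.2% were called at 5 mM (13.7% lower) and 28.1% at 25 mM (15.9% lower). With 7 genes the adaptor counts are not read as a change of the adaptors as a set. The adaptor Irs1, which couples the IGF1 receptor to the kinase, averaged 513.8 in DM 5 mM against 1157 in GM 5 mM, a change of -1.14 (SE 0.14, adjusted p = 2.2e-05), and 628.1 in DM 25 mM against 922.1 in GM 25 mM, a change of -0.53 (SE 0.14, adjusted p = 0.00869). Irs4, another adaptor of this family, averaged 40.81 in DM 25 mM against 80.21 in GM 25 mM, a change of -0.73 (SE 0.27, adjusted p = 0.0463), with groups that overlapped. At 5 mM Irs4 averaged 42.81 in DM against 31.44 in GM, a log2 difference of 0.27 that was not called (adjusted p = 0.518). Of the 8 listed proteases of binding proteins and their inhibitors, 4 were called at 5 mM (2 higher and 2 lower) and 3 at 25 mM (1 higher and 2 lower). The same shares of all genes stand beside these counts. Mmp2 changed by -1.16 at 5 mM (SE 0.13) and -0.90 at 25 mM (SE 0.13), and Htra1 by -0.76 (SE 0.13) and -1.06 (SE 0.13). Stc1, which encodes a stanniocalcin that inhibits PAPP-A, averaged 108 in DM 25 mM against 22.58 in GM 25 mM and rose by 1.62 (SE 0.26, adjusted p = 0.000224). At 5 mM it averaged 82.39 in DM against 34.05 in GM and rose by 0.93 (SE 0.26, limma adjusted p = 0.0143). Both GM means of Stc1 lay below the filter's 35.5, so it was tested through its DM readings. Of the 8 tested genes around mTOR, 0 were called at 5 mM (2 had an unadjusted p under 0.05) and 2 were called higher at 25 mM, and the insulin receptor gene Insr was not called at either level (log2 0.38 and -0.40). The mTOR counts were not above the shares of all genes called, 23.2% at 5 mM and 28.1% at 25 mM. Map2k2, a kinase of the MAP kinase branch, rose by 1.12 at 5 mM (SE 0.22, limma adjusted p = 0.00142) and by 1.11 at 25 mM (SE 0.22, adjusted p = 0.00127).

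Markers of other cells and of cell division moved with the medium, beside the members. The 2 measured cycling markers summed to 377.7 to 461.1 in DM 5 mM against 1985 to 2251 in GM 5 mM, and to 674.2 to 751.2 in DM 25 mM against 1971 to 2300 in GM 25 mM. The 5 adipocyte markers summed to 120.1 to 188.3 in DM 5 mM against 379.1 to 470.8 in GM 5 mM, and to 91.16 to 139 in DM 25 mM against 404.5 to 503.4 in GM 25 mM. Of these, Cebpa was lower in DM at both glucose levels and Lpl at 25 mM, while the defining gene Adipoq read 0.929 to 28 in all cultures. The 5 blood and endothelial markers summed to 113.4 to 173.5 in DM 5 mM against 176.9 to 224 in GM 5 mM, and to 109.7 to 140.4 in DM 25 mM against 240.6 to 273.7 in GM 25 mM, with Cd14 lower in DM and Ptprc at 4.13 to 27.2 throughout. The 3 fibroblast markers summed to 65.62 to 116.9 in DM 5 mM against 177 to 226.6 in GM 5 mM, and to 92.52 to 112.2 in DM 25 mM against 222 to 257.6 in GM 25 mM, with Twist2 lower in DM. Not every listed marker moved this way. Kdr, of the blood and endothelial list, read 47.1 to 52.1 in DM 5 mM against 35.1 to 40 in GM 5 mM. At 25 mM it read 33.4 to 42.8 in DM against 50.3 to 66.2 in GM, and it was not called. Dpt, of the fibroblast list, was too dim to test. It read 34.6 to 43.5 in DM 25 mM against 8.06 to 31.1 in GM 25 mM. At 5 mM it read 6.67 to 19.8 in DM against 19.1 to 29.1 in GM. Of the osteoblast markers only Sp7 was tested, and it was not called. The log2 ratio of the 3′ to the 5′ Actb control, a sign of RNA quality, was 0.10 to 0.37 in DM 5 mM against -0.05 to 0.38 in GM 5 mM, and 0.12 to 0.18 in DM 25 mM against 0.34 to 0.55 in GM 25 mM. The part of these markers and of RNA quality in the member changes was not tested.

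Likeness of pattern was measured as the root mean square difference of log2 values, each centred on its own mean, over the 12 MA arrays and 8107 genes. The arrays share their groups and their 18S division, so the values are descriptions. A member with little spread can have small differences, and the SD over the arrays was 0.325 for Igf1r and 2.346 for Igf2. The values are therefore not compared between members. Nearest to Igf2 were Pdlim3 (0.20), which encodes a muscle Z-disc protein, Cacna1s (0.43), the calcium channel of skeletal muscle, and Cav3 (0.45), the muscle caveolin. Nearest to Igfbp2 were Ptgr1 (0.14), Kcnn4 (0.14) and Spint1 (0.16), and nearest to Igfbp6 were Clmp (0.10), Spint1 (0.15) and Rnase4 (0.17). Igfbp7 lay nearest to H2az2 (0.17), Foxm1 (0.18), a transcription factor of dividing cells, and Mmp2 (0.18). Igfbp4 lay nearest to Mxi1 (0.19), Smc4 (0.19), a condensin subunit, and Zwilch (0.20), a kinetochore protein. Nearest to Igfbp3 were Msmo1 (0.25), an enzyme of cholesterol synthesis, Patj (0.26) and Gatm (0.28), and nearest to Igf1 were Cdh13 (0.21), Armcx4 (0.23) and Tbc1d1 (0.24). Igf2r lay nearest to Tmem147 (0.13), Olfml2b (0.13) and Alg3 (0.13), and Igf1r to Rnf26 (0.08), Rpa3 (0.11) and Pdcd6 (0.11). Nearest to Igfbp5 were Pttg1ip (0.09), Tmem242 (0.10) and Dst (0.14), a pattern that includes the 18S division.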

How the data were processed

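Total RNA of 12 C2C12 cultures was measured on 2 array designs (24 arrays). The deposited intensities are linear probe set values that the authors had already scaled: the mean after trimming 2 percent at each end came to 150.05 to 150.07 for MA arrays and 150.02 to 150.03 for MB arrays, so no further scaling was applied. The scanner software and summarisation method are not given in the sources used here. Control probe sets were left out. Probe sets with a mean intensity above the 40th percentile of their design (35.5 on MA and 63.7 on MB) were tested, 13575 on MA and 13506 on MB. Symbols came from the annotation provided for each design, updated through RefSeq. On MA 20380 probe sets named 1 gene, 691 several and 1555 none, and on MB 14661, 245 and 7605.

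Each design was fitted with limma 3.58.1 (R 4.3.3) on log2(intensity + 20), with 4 group means over 12 arrays, eBayes with a trend and 5 two-sided contrasts. Benjamini-Hochberg adjustment ran over all tested probe sets of a design, and the threshold was 0.05. The script was tested on simulated data. Per gene, the brightest tested probe set naming no other gene was used, from MA where possible. Named pathway genes are up to 4 of the largest called changes in each direction per comparison. The members, the pathway and marker lists and the alternatives were chosen with earlier results of these data known.

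Replicate numbers recur in every group. Deviations of same-numbered cultures from their group means correlated at -0.465 to 0.521, and 5 of 24 correlations were over 0.1, so the numbers were not taken to pair cultures. No columns were identical, and precision is limited by the number of arrays. Promoter windows come from RefSeq on GRCm38.p6. Protein sequences were not used here.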

Additional observations from a re-analysis of the deposited data

How the results depend on the processing

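The alternatives were pseudocounts of 1 and 64, no filter or a 60th percentile filter, median centring, quantile normalization, no eBayes trend, array weights, a replicate block, the 18S division as a block, only the high-18S cultures, and leaving out each of the 12 cultures. Member probe sets called in DM against GM numbered 13 to 16 at 5 mM and 13 to 15 at 25 mM (12 to 15 and 13 to 15 when leaving out 1 culture). With all cultures kept, the share of all tested probe sets called ran from 9.71% without a filter to 25.4% with array weights at 5 mM. At 25 mM it ran from 12.5% without a filter to 27.4% with the 60th percentile filter. Pathway genes numbered 11 to 16 and 13 to 18 (9 to 16 and 10 to 16 when leaving out 1 culture, with 9 without DM 5 mM replicate 1 and without DM 5 mM replicate 3). With the replicate block 14 and 15 member probe sets and 12 and 13 pathway genes were called at 5 and 25 mM, and the block took the call from Igf1r at 5 mM (-0.54, adjusted p = 0.0503).

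For 5 mM against 25 mM in DM, 1 member probe set was called with pseudocount 64, with array weights and within the high-18S cultures, 2 with the 18S block, and 0 to 1 when leaving out 1 culture (Igfbp7 without DM 25 mM replicate 3, Igf1 without GM 5 mM replicate 3). Of the pathway, 1 gene was called there with the 18S block and 0 to 1 when leaving out 1 culture, and 2 were called in GM with array weights. Of all tested probe sets, 0.886% were called in DM with pseudocount 64, 1.17% with array weights and 2.26% with the 18S block. In GM with array weights 3.18% of all were called, against 0.00369% in the main setting. These counts are thus not read as a result about the members or the pathway. No alternative gave a member call for glucose in GM or for the interaction.

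Of 777 alternative values of the 34 member differences that were called in any setting, 738 kept direction and side of the threshold, 27 lost the call, 9 gained one and 3 turned sign. The 3 belong to Igfbp5 1422313_a_at in DM against GM at 5 mM: -0.31 with array weights, -0.07 without DM 5 mM replicate 2 and -0.17 without GM 5 mM replicate 3, in a range of -0.17 to 0.85 over the cultures left out. With array weights Igfbp5 1452114_s_at was called there (0.79, adjusted p = 0.00631). The calls lost belong to Igf1 1437401_at and 1434413_at, Igf1r 1426565_at and Igfbp4 1437406_x_at. A further 81 differences were called in no setting and changed sign in 131 of 1848 values. The cause of these changes was not tested.

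Median centring moved the median of all probe sets by 0.16 at 25 mM, and 65.4% of calls were then higher in DM against 46.1% otherwise. For the interaction 14.1% against 29.9% were positive. Under it Igf1r (-0.40, adjusted p = 0.0842) and Igfbp4 1437406_x_at (-0.66, adjusted p = 0.0662) lost the call at 25 mM, and no called member turned direction.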
